A study of Homo sapiens with 12 samples.

Results

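A set of 10 genes, whose enzymes turn citrate and acetate into long, desaturated and activated fatty acids, was followed through 2 human leukaemia cell lines with and without the arginine-degrading enzyme ADI-PEG20. They were chosen by function, as the rows of the count table whose Ensembl identifiers carry the symbols ACLY, ACSS2, ACACA, FASN, ELOVL5, ELOVL6, SCD, FADS1, FADS2 and ACSL3, which are 10 of the 60664 genes in the table. The low level of SCD in treated TOM-1 cells was known when the genes were selected, so their values in the 3 comparisons that use the treated TOM-1 libraries (the TOM-1 treatment effect, its difference from that in RS4;11, and the lines compared under the drug) are a description. No p is given for them there, and where they are counted as past the threshold, the count stands beside the share of all genes and nothing is read from it. Where a single gene is said to pass or not to pass there, this describes the fit and is not the result of a test. RNA was sequenced after poly(A) capture from TOM-1, a B-cell acute lymphoblastic leukaemia line with the Philadelphia chromosome (BCR-ABL1), and from RS4;11, a B-cell acute lymphoblastic leukaemia line with a KMT2A rearrangement. Both are labelled wild type, were kept in RPMI with 20% fetal bovine serum and antibiotics, and were sampled in log-phase growth, so every group had serum in its medium. The 4 groups were TOM-1 control culture, TOM-1 with ADI-PEG20 at 1000 ng/ml, RS4;11 control culture and RS4;11 with the same dose, each for 24 h and each with 3 libraries. ADI-PEG20 is a pegylated arginine deiminase that converts extracellular arginine to citrulline, and the title of the series concerns deficiency of ASS1, the enzyme that lets cells rebuild arginine from citrulline. Each line is 1 established line, and the labels do not say whether the 3 libraries came from separate cultures, so p-values measure only the spread between these libraries.

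Fatty acid synthesis starts in the cytosol, where ATP citrate lyase (ACLY) splits citrate into acetyl-CoA and oxaloacetate and acetyl-CoA synthetase (ACSS2) makes acetyl-CoA from acetate. Acetyl-CoA carboxylase (ACACA) turns acetyl-CoA into malonyl-CoA in the committed step, and fatty acid synthase (FASN) builds palmitate from both. ELOVL6 lengthens palmitate to stearate, SCD places the first double bond into saturated chains to give oleate and palmitoleate, and ELOVL5, FADS1 and FADS2 lengthen and desaturate polyunsaturated chains. ACSL3 couples fatty acids to CoA at the endoplasmic reticulum and on lipid droplets. Many of these genes are classical targets of the SREBP transcription factors, which are released from the endoplasmic reticulum when sterols are low, and SCD, FASN and ELOVL6 are also known targets of LXR.

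Total counts ran from 18958144 to 35956959 per library. TOM-1 control replicate 3 stood apart: 14963 genes had at least 1 read there against 19857 to 21997 in the other 11 libraries, and genes of ribosomal proteins took 20.0% of its counts against 5.96% to 10.01%. Its median log2 difference from the other TOM-1 control libraries was 0.00 over the 4270 genes with the shortest exonic lengths and -0.64 over the 4268 with the longest, and the 10 enzymes have exonic lengths from 3813 to 13008 bases. Its level was 0.47 to 0.77 times the mean of TOM-1 control replicates 1 and 2 for 9 of the 10 genes and 1.29 times for FADS2. Counts of called genes and the treatment effects of the 10 genes in TOM-1 are therefore given with all 12 libraries and without this one. Ribosomal protein genes also took a smaller share in treated TOM-1 (5.96% to 6.11%) than in TOM-1 control replicates 1 and 2 (9.05% and 9.31%), and the part of this shift in the results was not tested.

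Annotated start regions of 4 genes with different responses are shown here, and which start sites these cells use was not measured. RefSeq windows (GRCh38.p14, from 250 bases before to 50 bases after a start site) were at hand for 9 of the 10 genes, in 14 windows. They are printed 5′ to 3′ on the strand of the gene, with each CCAAT box (CCAAT, or ATTGG where it lies on the other strand) in capitals. The CCAAT box binds NF-Y, a factor known to act beside SREBPs. SCD lies on the plus strand at chr10:100346983-100347282 and had the lowest ratio of treated to control in TOM-1, ACLY at chr17:41918973-41919272 on the minus strand was also lower, ELOVL5 at chr6:53348901-53349200 on the minus strand had a log2 fold change of -0.01 there without TOM-1 control replicate 3, and FADS2 at chr11:61816154-61816453 on the plus strand was lower.
SCD: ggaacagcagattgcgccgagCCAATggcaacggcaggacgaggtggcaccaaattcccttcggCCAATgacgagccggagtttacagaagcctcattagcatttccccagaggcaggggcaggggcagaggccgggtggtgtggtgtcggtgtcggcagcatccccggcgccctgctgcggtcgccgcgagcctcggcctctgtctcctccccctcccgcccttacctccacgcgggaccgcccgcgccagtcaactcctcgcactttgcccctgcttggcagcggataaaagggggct
ACLY: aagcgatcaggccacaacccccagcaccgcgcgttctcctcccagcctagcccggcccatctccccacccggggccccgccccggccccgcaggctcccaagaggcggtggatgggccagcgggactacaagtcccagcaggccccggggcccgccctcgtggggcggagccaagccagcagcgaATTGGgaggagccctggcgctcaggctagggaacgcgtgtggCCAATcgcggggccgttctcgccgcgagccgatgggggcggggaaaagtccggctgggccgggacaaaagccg
ELOVL5: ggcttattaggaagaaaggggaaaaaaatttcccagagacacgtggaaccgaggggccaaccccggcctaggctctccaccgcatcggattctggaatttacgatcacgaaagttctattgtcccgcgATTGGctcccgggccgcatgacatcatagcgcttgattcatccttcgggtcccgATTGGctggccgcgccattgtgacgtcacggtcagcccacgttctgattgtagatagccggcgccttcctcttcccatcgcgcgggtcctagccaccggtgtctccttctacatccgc
FADS2: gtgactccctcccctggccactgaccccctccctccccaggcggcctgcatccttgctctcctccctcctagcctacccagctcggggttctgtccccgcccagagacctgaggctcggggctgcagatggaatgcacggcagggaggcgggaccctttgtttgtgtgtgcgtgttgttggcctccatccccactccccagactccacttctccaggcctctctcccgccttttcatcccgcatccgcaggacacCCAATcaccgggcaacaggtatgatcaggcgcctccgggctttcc

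In the SCD window the boxes begin 229 and 186 bases before the start site, and in the ELOVL5 window 122 and 68 bases before it. ACLY has 2 windows, and the boxes begin 65 and 23 bases before the start site of the one printed and 136 and 94 bases before that of the other. FADS2 also has 2, of which the one printed holds 1 box, beginning at position 5 after the start, and the other none. Both FADS2 start sites, at 61816203 and 61816404, lie inside the annotated gene, which spans 61792980 to 61867354. So do both ACLY start sites, at 41919022 and 41918951, in a minus-strand gene that spans 41866908 to 41930542. The windows of FADS2 and ACLY may therefore not be the promoters of the RNA counted here. The start sites of SCD (100347233, gene from 100347124) and ELOVL5 (53348950, gene to 53349179) lie near the annotated 5′ ends. A CCAAT box occurred in at least 1 window of 7 of the 9 genes, against 34.6% of the 35116 windows in the table, and 4 genes had a window with 2 or more, against 10.8% of all windows. ACACA, ACSS2 and FADS2 had boxes in some of their windows and none in others, and ELOVL6 and FADS1 had none. A GC box (GGGCGG or CCGCCC) occurred in 8 of the 9 genes, against 45.0% of all windows. The palindromic E-box CACGTG was found for ELOVL5 alone among the 9 genes, against 7.26% of all windows. The sterol regulatory element core CACCCCAC (or GTGGGGTG) was found in none of the 14 windows, against 2.79% of all windows, and a gene with several windows had more chances to hold a match than a gene with 1. The printed windows of SCD, ACLY and ELOVL5 each hold 2 boxes, at different distances from the start site. Whether the boxes relate to the response in TOM-1 was not tested. Among the windows at hand, the nearest start sites of FADS1 and FADS2 lie 599 bases apart on opposite strands.

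Levels are given as CPM, read counts divided by the size of their library and scaled by TMM, which sets aside the genes with extreme ratios when libraries are compared. The 10 genes together made up 2001, 1975 and 1391 CPM in TOM-1 control replicates 1, 2 and 3. They summed to 1062 to 1092 CPM in treated TOM-1, to 2695 to 2791 CPM in RS4;11 control and to 2461 to 2590 CPM in treated RS4;11. The treated TOM-1 libraries were thus below all the others, and RS4;11 was above TOM-1 under either condition. FASN supplied 28.0% to 31.8% of the sum in TOM-1 control, 16.37% to 16.995% in treated TOM-1 and 28.4% to 32.3% in RS4;11. In bulk RNA of this kind, less RNA per cell and fewer cells of a kind cannot be told apart.

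**Figure D1:**
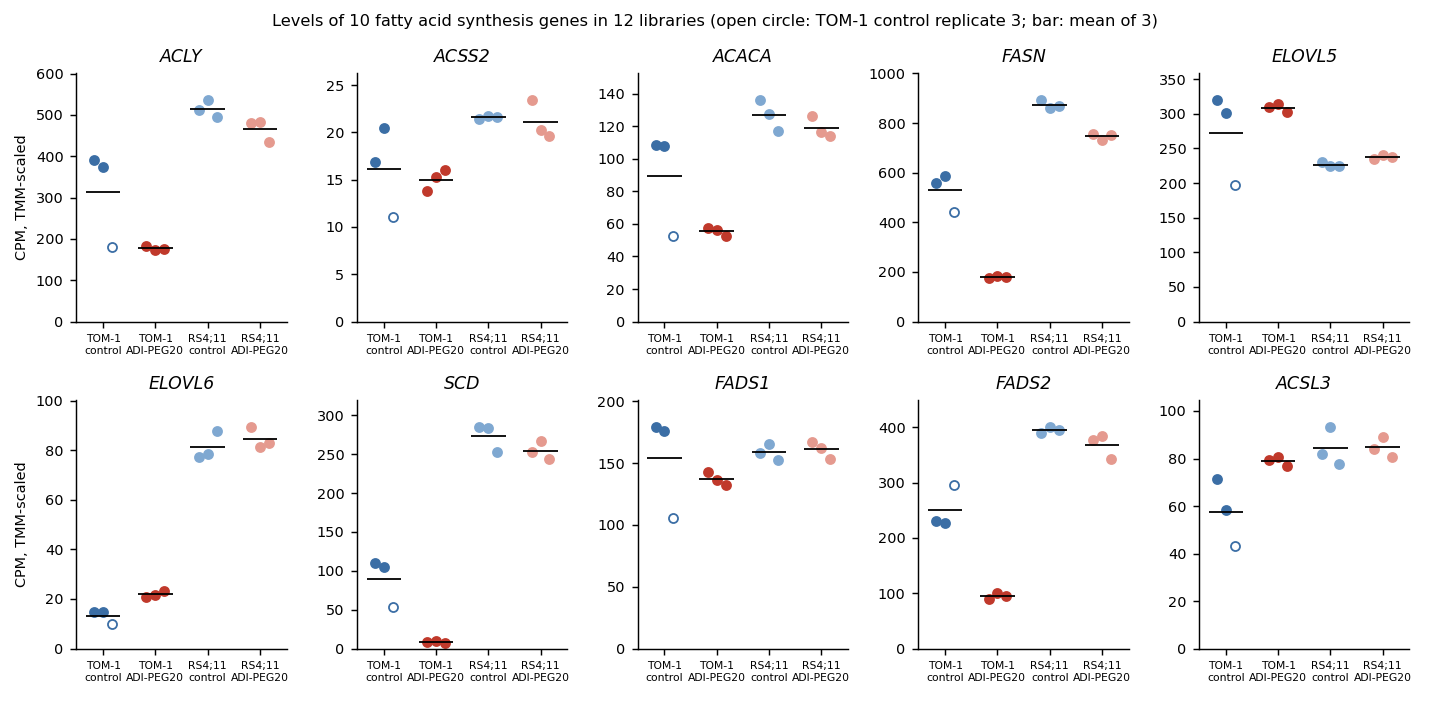
Levels of the 10 genes in CPM (TMM-scaled, vertical axes from 0) in each of the 12 libraries of the 4 groups, with points for libraries, an open circle for TOM-1 control replicate 3 and a bar for the mean of 3. SCD, FASN and FADS2 in treated TOM-1 lie below every other library, while the RS4;11 groups lie close together in each panel.

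Per kilobase of exonic length, which allows genes to be compared with each other, ELOVL5 was the highest of the 10 in TOM-1 control at 81.5 CPM per kb without replicate 3, followed by ACLY at 73.2 and FASN at 61.4. FADS2 at 20.8, SCD at 20.1 and FADS1 at 17.4 CPM per kb came next, and ACSS2 at 3.47 and ELOVL6 at 2.03 were lowest. In treated TOM-1 the first 3 places were the same, with ELOVL5 at 81.0, ACLY at 33.9 and FASN at 19.3 CPM per kb, while SCD went from the fifth place to the last with 1.56. In RS4;11 control ACLY was first at 98.6, ahead of FASN at 93.4, ELOVL5 at 59.3 and SCD at 51.1 CPM per kb, and the order was the same in treated RS4;11. ACLY and FASN are neighbours in that order, and their ranking depends on the exonic length taken for each gene.

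In TOM-1, the log2 fold changes with ADI-PEG20 over all 12 libraries ran from -3.43 for SCD to 0.74 for ELOVL6. They were negative for SCD, FASN, FADS2, ACLY, ACACA, FADS1 and ACSS2 and positive for ELOVL6, ACSL3 and ELOVL5. SCD, FASN, FADS2, ACLY, ACACA and ELOVL6 passed an adjusted p of 0.05 (edgeR) over all 12 libraries, 5 lower and 1 higher. Of the 17349 genes tested, 15.9% were called lower and 15.9% higher. Without TOM-1 control replicate 3, 8 passed, with FADS1 added on the lower side and ACSL3 on the higher, where 19.8% of 18321 genes were called lower and 21.8% higher. Nothing is read from these counts, since the genes were chosen with this contrast in view. The median log2 fold change of the 10 genes was -0.43 with all libraries and -0.67 without replicate 3, and that of all tested genes with reads in TOM-1 was 0.08 and 0.04.

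Of the enzymes that make cytosolic acetyl-CoA, ACLY measured 390.0, 373 and 179.7 CPM in TOM-1 control replicates 1 to 3 and 182, 173 and 176 CPM in the treated libraries. The treated libraries lay below control replicates 1 and 2, while control replicate 3 lay among them. The log2 fold change was -0.83 (SE 0.22) with all libraries and -1.11 (SE 0.06) without replicate 3. ACSS2, at the acetate branch, measured 16.9, 20.4 and 11.1 CPM in control and 13.8, 15.2 and 16.01 CPM in treated TOM-1. Its groups overlapped only through control replicate 3, and its log2 fold change of -0.11 (SE 0.19), or -0.31 (SE 0.13) without that library, did not pass the threshold in either fit.

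ACACA, the carboxylase of the committed step, measured 108, 108 and 52.4 CPM in TOM-1 control and 57.2, 56.5 and 52.5 CPM with ADI-PEG20. Control replicate 3 lay just below the treated libraries and the other control libraries lay above all treated ones. The log2 fold change was -0.69 (SE 0.22), and -0.97 (SE 0.08) without replicate 3. The call over all libraries was lost when any 1 of TOM-1 control replicates 1 and 2 or the 3 treated TOM-1 libraries was left out. FASN, which carries out all further steps to palmitate, measured 560.4, 589 and 442 CPM in control and 177, 186 and 180.2 CPM in treated TOM-1. The groups did not overlap, control replicate 3 included, and the level was 2.93-fold lower with all libraries (log2 fold change -1.55, SE 0.12) and 3.18-fold lower without that library (-1.67, SE 0.05).

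SCD, the delta-9 desaturase that makes oleate, had the lowest log2 fold change of the 10 genes. It measured 109.9, 106 and 54.0 CPM in TOM-1 control and 7.92, 9.58 and 7.55 CPM with ADI-PEG20. All treated libraries lay far below the lowest control library. The level was 10.8-fold lower with all libraries (log2 fold change -3.43, SE 0.24) and 12.9-fold lower without control replicate 3 (-3.69, SE 0.09). SCD ranked as the 90th lowest log2 fold change of the 17349 genes tested, and as the 100th lowest of 18321 without replicate 3. SCD5, the other human delta-9 desaturase, was also lower, and is named for the size of its change here, so no p is given. It had a mean of 68.8 CPM in TOM-1 control replicates 1 and 2 and of 35.1 ± 2.00 CPM (SD, n = 3) with the drug. Per length, SCD was above SCD5 in TOM-1 control without replicate 3 (20.1 against 16.04 CPM per kb), and below it in treated TOM-1 (1.56 against 8.19 CPM per kb). In RS4;11 control SCD5 was at 3.60 CPM per kb against 51.1 for SCD.

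FADS2, the delta-6 desaturase, was the gene for which the library that stands apart lay on the other side. It measured 229.9, 228 and 296 CPM in TOM-1 control and 89.8, 100.1 and 95.7 CPM with ADI-PEG20, with no overlap. Its log2 fold change was -1.40 (SE 0.12), and -1.27 (SE 0.06) without control replicate 3. FADS1, the delta-5 desaturase encoded beside it, measured 179, 176 and 106 CPM in control and 143, 136 and 132 CPM in treated TOM-1. The treated libraries lay between control replicate 3 and the other control libraries, and the log2 fold change of -0.17 (SE 0.17) became -0.38 (SE 0.07) without replicate 3. The exons of FADS1 and FADS2 overlap on opposite strands over 4.79% and 4.44% of their exonic lengths, counting all overlapping genes, and the strand setting of the counting was not given in the sources used here, so some reads of this pair could have been assigned to the wrong gene.

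Of the elongases, ELOVL6 was higher in treated TOM-1, while ELOVL5 differed little from control replicates 1 and 2. ELOVL6, which makes stearate from palmitate, measured 14.9, 14.7 and 9.71 CPM in TOM-1 control and 20.9, 21.7 and 23.4 CPM in treated TOM-1. The treated libraries were all above the control libraries, with a log2 fold change of 0.74 (SE 0.16), and 0.57 (SE 0.10) without replicate 3. ELOVL5, the elongase of polyunsaturated chains, measured 320.2, 301 and 197 CPM in control and 309.8, 314 and 302 CPM with ADI-PEG20. Its treated libraries lay in the range of control replicates 1 and 2. The log2 fold change was 0.18 (SE 0.15) with all libraries and -0.01 (SE 0.06) without replicate 3, with a 95% interval of -0.13 to 0.10. ACSL3, the acyl-CoA synthetase, measured 71.4, 58.1 and 43.1 CPM in control and 79.2, 80.4 and 76.9 CPM in treated TOM-1. The groups did not overlap, and the log2 fold change was 0.45 (SE 0.16), and 0.28 (SE 0.09) without replicate 3. This last value passed the threshold, but not when TOM-1 control replicate 2 or treated TOM-1 replicate 2 was left out as well.

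**Figure D2:**
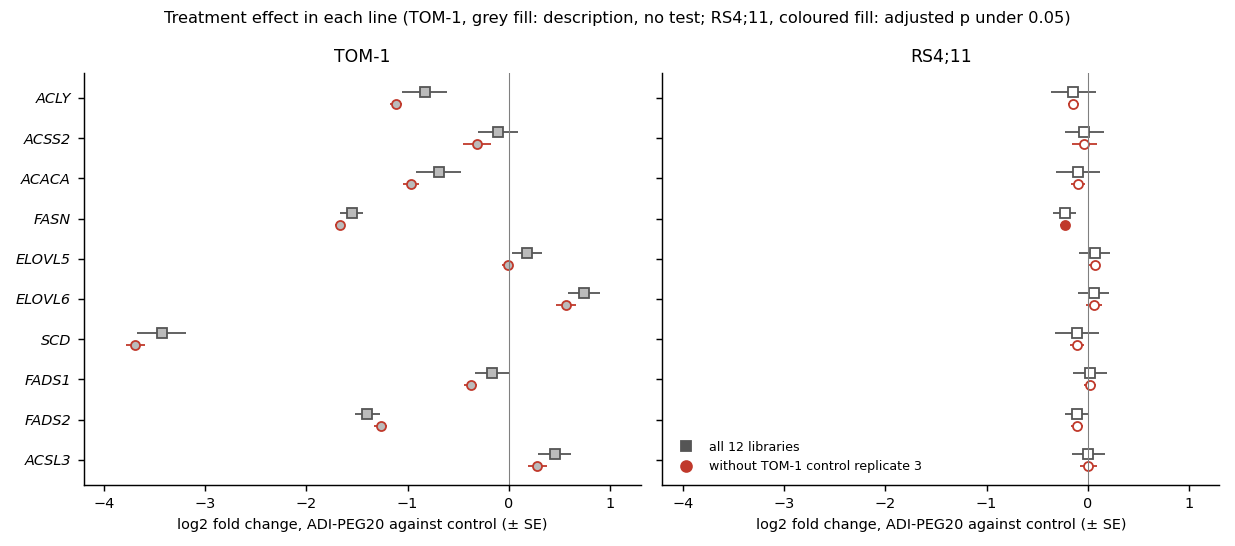
Log2 fold change of ADI-PEG20 against control (horizontal axis, bars show the SE) for the 10 genes in TOM-1 and in RS4;11, with squares for all 12 libraries and circles for the fit without TOM-1 control replicate 3, filled in grey in TOM-1, where they are a description, and in colour in RS4;11 where the adjusted p is under 0.05. In TOM-1 the values run from -3.69 for SCD to 0.74 for ELOVL6, and in RS4;11 all lie between -0.23 and 0.07.

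In RS4;11 none of the 10 genes passed the threshold over all 12 libraries with edgeR, where 0.0% of genes were called lower and 0.0% higher. At an unadjusted p under 0.05, 325 of 17349 genes and 0 of the 10 were counted, and DESeq2 called 0 genes. Without TOM-1 control replicate 3 that count was 2207 of 18321 genes and 2 of the 10, FASN and ACLY. SCD measured 285, 284 and 253 CPM in RS4;11 control and 254, 268 and 243 CPM with ADI-PEG20. The groups overlapped, and the edgeR log2 fold change of -0.10 (SE 0.22), with an adjusted p of 1, had a 95% interval of -0.57 to 0.37, or of -0.25 to 0.04 without TOM-1 control replicate 3, whose spread enters the shared estimate. FADS2 had 390.2, 401 and 395 CPM in control and 377, 384 and 343 CPM in treated RS4;11, and ACLY 511, 536 and 496 CPM against 480.1, 482 and 434 CPM. Both had every treated library below every control library, with log2 fold changes of -0.10 and -0.14 that did not pass the threshold in either fit. ELOVL5 had every treated library above every control library, at 234 to 240.2 against 224 to 229.8 CPM, and its log2 fold change of 0.07 passed in neither fit. The share of all genes that separated in this way in RS4;11 was not counted, so nothing is read from a separation there.

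FASN was the 1 gene of the 10 that passed in RS4;11 when TOM-1 control replicate 3 was left out. It measured 894, 859 and 869.7 CPM in RS4;11 control and 754, 732 and 752 CPM in treated RS4;11, with no overlap. The log2 fold change was -0.23 in both fits, with an SE of 0.11 and an edgeR adjusted p of 1 over all libraries, and an SE of 0.05 and an adjusted p of 0.0394 without that library. In the second fit 0.115% of genes were called lower and 0.202% higher. When 1 more library was left out, FASN no longer passed in 10 of the 11 fits, with adjusted p up to 0.142, nor with the size factors of DESeq2 in place of TMM. The remaining 7 genes, ACACA, ACSS2, ELOVL5, ELOVL6, FADS1, ACSL3 and SCD, had log2 fold changes from -0.11 to 0.07 without that library.

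The difference between the treatment effects of the lines contains the TOM-1 contrast and shares its libraries, so it is again a description. The log2 difference, TOM-1 minus RS4;11, was -3.32 (SE 0.32) for SCD, -1.32 (SE 0.16) for FASN and -1.30 (SE 0.17) for FADS2, and these were the 3 genes past the threshold with all libraries, where 6.05% of genes were called lower and 5.89% higher. Without TOM-1 control replicate 3, the values were -3.58, -1.44 and -1.16, and ACLY (-0.97), ACACA (-0.87), FADS1 (-0.40) and ELOVL6 (0.51) also passed, where 14.7% of genes were called lower and 15.7% higher. ELOVL5, ACSL3 and ACSS2 passed in neither fit, with log2 differences of -0.08, 0.27 and -0.28 without that library.

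In control culture, without the drug, most of the genes were lower in TOM-1 than in RS4;11. With all libraries, SCD, FASN, ACLY, ELOVL6, FADS2 and ACSL3 were lower in TOM-1 (edgeR adjusted p from 1.63e-07 for ELOVL6 to 0.0265 for ACLY), 6 of 10, where 18.4% of genes were called lower in TOM-1 and 16.2% higher. ELOVL6 differed most between the lines, at 14.9, 14.7 and 9.71 CPM in TOM-1 control against 77.4, 78.5 and 87.7 CPM in RS4;11 control. The lines did not overlap, and ELOVL6 was 6.17-fold lower in TOM-1 with all libraries and 5.49-fold lower without TOM-1 control replicate 3. SCD was 3.05-fold lower in TOM-1 (log2 difference -1.61, SE 0.22, edgeR adjusted p = 0.000116) and 2.55-fold lower without that library (-1.35, SE 0.08). FASN had a log2 difference of -0.72 (SE 0.11, edgeR adjusted p = 0.000355) and FADS2 of -0.65 (SE 0.12, edgeR adjusted p = 0.00111), or -0.61 and -0.79 without that library.

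Without TOM-1 control replicate 3, 9 of the 10 genes differed between the lines in control culture, where 27.5% of genes were called lower in TOM-1 and 25.4% higher. ACACA joined the lower genes at -0.23 (SE 0.08, edgeR adjusted p = 0.0150), while ELOVL5 was higher in TOM-1 at 0.46 (SE 0.06, edgeR adjusted p = 5.4e-07) and FADS1 at 0.16 (SE 0.07, edgeR adjusted p = 0.0439). ELOVL5 had 320.2 and 301 CPM in TOM-1 control replicates 1 and 2 against 224 to 229.8 CPM in RS4;11 control, and replicate 3, at 197 CPM, lay below RS4;11. The FADS1 difference has the opposite sign with all libraries, -0.05 (SE 0.17, edgeR adjusted p = 0.873). Of the 6 calls over all libraries, that of ACLY was lost without RS4;11 control replicate 1 or 2, and that of ACSL3 without RS4;11 control replicate 2. Both were also lost in a fit on only the libraries compared. Of the calls without TOM-1 control replicate 3, that of ACACA was lost when TOM-1 control replicate 1 or 2 or RS4;11 control replicate 1 was also left out. That of ACSL3 was lost without TOM-1 control replicate 2, and that of FADS1 in 6 of the 11 such fits. The FADS1 call was also lost with DESeq2 size factors or upper-quartile scaling in place of TMM, and with a term for the replicate number.

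With ADI-PEG20 in both cultures, the lines stood further apart for the genes that were lower in treated TOM-1. SCD, FASN, ACACA, ACLY, ELOVL6 and FADS2 were called lower in TOM-1 with all libraries, where 24.0% of genes were called lower and 23.1% higher. This contrast uses the same treated TOM-1 libraries as the comparisons above, but averages over no control library, and its values are a description as well. SCD was 30.5-fold lower in TOM-1 (log2 difference -4.93, SE 0.26), ACLY had a log2 difference of -1.40 (SE 0.225) and FADS2 of -1.95 (SE 0.12). FASN at 177 to 186 CPM in treated TOM-1 against 732 to 754 CPM in treated RS4;11 was 4.13-fold lower, and ACACA at 52.5 to 57.2 against 114 to 127 CPM was 2.15-fold lower. ELOVL6 alone among these 6 was closer between the lines than in control culture, with a log2 difference of -1.94 (SE 0.16), and its treatment effects differed by 0.68 (SE 0.22), which did not pass the threshold with all libraries.

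Without TOM-1 control replicate 3 the spread estimate was smaller, and 9 of the 10 genes were called between the treated lines, where 31.5% of genes were called lower in TOM-1 and 31.4% higher. ACSS2 at -0.50 (SE 0.12) and FADS1 at -0.24 (SE 0.06) were added as lower and ELOVL5 at 0.37 (SE 0.05) as higher. The log2 differences of the 6 genes above were then -4.93 for SCD, -2.05 for FASN, -1.11 for ACACA, -1.40 for ACLY, -1.95 for ELOVL6 and -1.96 for FADS2. ACSL3 did not pass in either fit, at -0.10 (SE 0.16) and -0.11 (SE 0.08), and the 95% interval of the latter was -0.28 to 0.07. In treated TOM-1 it measured 76.9 to 80.4 CPM and in treated RS4;11 80.8 to 89.0 CPM.

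**Figure D3:**
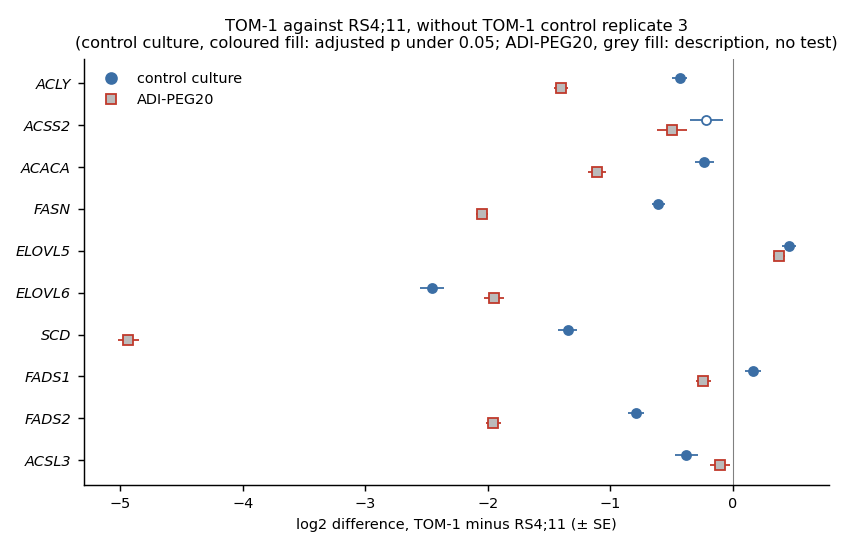
Log2 difference, TOM-1 minus RS4;11 (horizontal axis, bars show the SE), for the 10 genes in control culture (circles) and with ADI-PEG20 (squares), fitted without TOM-1 control replicate 3, with circles filled in colour where the adjusted p is under 0.05 and squares in grey as a description. The square for SCD at -4.93 lies far left of its circle at -1.35, and ELOVL5 lies right of 0 under both conditions.

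Around these genes, 9 lists of lipid genes were counted in TOM-1. The shares of all genes called given above (15.9% in each direction with all libraries) are the measure to read them against. The lists were chosen with earlier results of these data known, so the calls of their genes in TOM-1 are a description and no p is given. In the list of SREBP processing, with 7 of 7 genes tested, 4 were lower and 2 higher, with a median log2 fold change of -0.35 (all tested genes with reads had 0.08). SREBF2, the factor tied mainly to sterol genes, fell by 0.70 on the log2 scale (SE 0.15). SREBF1, tied mainly to fatty acid genes, fell by 0.67 (SE 0.14). Without TOM-1 control replicate 3 the log2 fold changes of SREBF2 and SREBF1 were -0.88 and -0.48. INSIG1 holds the SREBP carrier in the endoplasmic reticulum and is itself an SREBP target. It was at 151 ± 26.6 CPM (SD, n = 3) in control and 115 ± 6.30 CPM (SD, n = 3) in treated TOM-1. Its log2 fold change of -0.39 (SE 0.14) was called only without TOM-1 control replicate 3, at -0.53. MBTPS2, a protease that releases SREBPs, rose, with a log2 fold change of 1.07 with all libraries and 0.81 without that library. In RS4;11, SREBF1 had 224 ± 9.99 CPM in control and 209 ± 2.53 CPM with the drug (SD, n = 3 each), and SREBF2 530 ± 29.8 and 537 ± 13.0 CPM.

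Among the LXR and ChREBP regulators and LXR targets, 3 of 9 tested genes rose and 1 fell, and the median was -0.23, or 0.10 without TOM-1 control replicate 3. MYLIP, a ubiquitin ligase and LXR target, rose by a log2 fold change of 0.92 (SE 0.16), and MLXIP, a paralogue of ChREBP, by 0.70 (SE 0.15), while RXRB, a partner of LXR, fell by 0.57 on the log2 scale. These 3 had 0.85, 0.52 and -0.53 without that library. ABCA1, a cholesterol exporter and LXR target, was the other gene that rose. It had no read in TOM-1 control and a mean of 0.78 CPM in treated TOM-1, and it was named here after its value was seen. Of the genes that supply acetyl-CoA, malonyl-CoA and NADPH, 4 of 8 fell and 2 rose, with a median of -1.04 over the 7 with reads in TOM-1. PGD of the pentose phosphate pathway, which yields NADPH, fell by 1.35 on the log2 scale (SE 0.15), SLC25A1, the mitochondrial citrate carrier, by 1.46 (SE 0.27), and ACACB, the carboxylase at the mitochondrion, by 1.04 (SE 0.20). The values of these 3 without TOM-1 control replicate 3 were -1.11, -0.95 and -1.12.

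In the list of other elongation and desaturation enzymes, 5 of 13 fell and 1 rose, with a median of -0.37. TECR, which reduces the last intermediate of each elongation cycle, had a log2 fold change of -1.55 (-1.05 without TOM-1 control replicate 3), SCD5 of -0.79 (-0.97) and CYB5R3, which feeds electrons to desaturases through cytochrome b5, of -0.96 (-0.86). Of the other acyl-CoA synthetases and uptake genes, 7 of 11 fell and 2 rose, with a median of -0.86. FABP5, a fatty acid binding protein, measured 378 ± 185 CPM (SD, n = 3) in control, where replicate 3 was at 592, and 65.8 ± 6.89 CPM (SD, n = 3) in treated TOM-1. Its log2 fold change was -2.52 (SE 0.26), and -2.05 (SE 0.07) without replicate 3. DBI, the acyl-CoA binding protein, had -1.97 (-1.40) and SLC27A5, a bile acid and very long chain acyl-CoA synthetase, -1.62 (-1.08).

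Mitochondrial fatty acid synthesis, which makes the precursor of lipoic acid, had 4 of 10 genes lower and 1 higher and a median of -0.21. HSD17B8 and CBR4 encode the subunits of 1 reductase of this pathway and went opposite ways, with log2 fold changes of -1.81 (-1.13 without TOM-1 control replicate 3) and 1.04 (0.97), and MCAT, its malonyl transferase, had -1.14 (-0.86). Of the glycerolipid and lipid droplet genes, 7 of 16 fell and 2 rose, with a median of -0.70 over the 15 with reads in TOM-1. LPCAT1, which reacylates lysophosphatidylcholine, had -1.63 (-1.67), HILPDA, an inhibitor of lipid droplet lipolysis, -1.50 (-1.25), and DGAT1, which makes triglyceride, -1.42 (-1.09). Fatty acid oxidation had 8 of 18 lower and 1 higher and a median of -0.04. ACAA2, a mitochondrial thiolase, had -1.20 (-0.96) and HADHB, of the trifunctional protein, -0.60 (-0.61), while SLC25A20, the carnitine carrier, had 0.13 (SE 0.37) with all libraries and passed only without that library, at 0.83 (SE 0.19).

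Sterol synthesis and uptake had 13 of 21 genes lower and 1 higher and a median of -0.82 over the 19 genes with reads in TOM-1. DHCR7, the last reductase of cholesterol synthesis, had a log2 fold change of -1.98 (-1.997 without TOM-1 control replicate 3) and MVD of the mevalonate pathway of -2.07 (-1.50). With that replicate left out, 19.8% of all tested genes were called lower and 21.8% higher. The listed genes called lower and higher were 5 and 2 of 7 for SREBP processing and 1 and 3 of 9 for LXR and ChREBP. They were 4 and 2 of 9 for supply and 7 and 1 of 14 for other elongation and desaturation. For acyl-CoA synthetases and uptake they were 7 and 2 of 11, and for mitochondrial synthesis 4 and 2 of 10. They were 7 and 2 of 16 for glycerolipids, 9 and 3 of 18 for oxidation and 15 and 1 of 21 for sterols. The medians were then -0.41 for SREBP processing, -0.79 for supply, -0.45 for other elongation and desaturation, -0.61 for uptake, -0.02 for mitochondrial synthesis, -0.29 for glycerolipids, -0.26 for oxidation and -0.85 for sterols, against 0.04 over all genes with reads. Over the 9 lists in RS4;11, 0 of 113 tested genes were called by edgeR or by DESeq2 with all libraries, and 2 had an unadjusted p under 0.05. Without TOM-1 control replicate 3, 0 of 115 were called by edgeR and 15 had an unadjusted p under 0.05. Whether these lists responded differently in the lines was not tested for the lists as wholes.

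**Figure D4:**
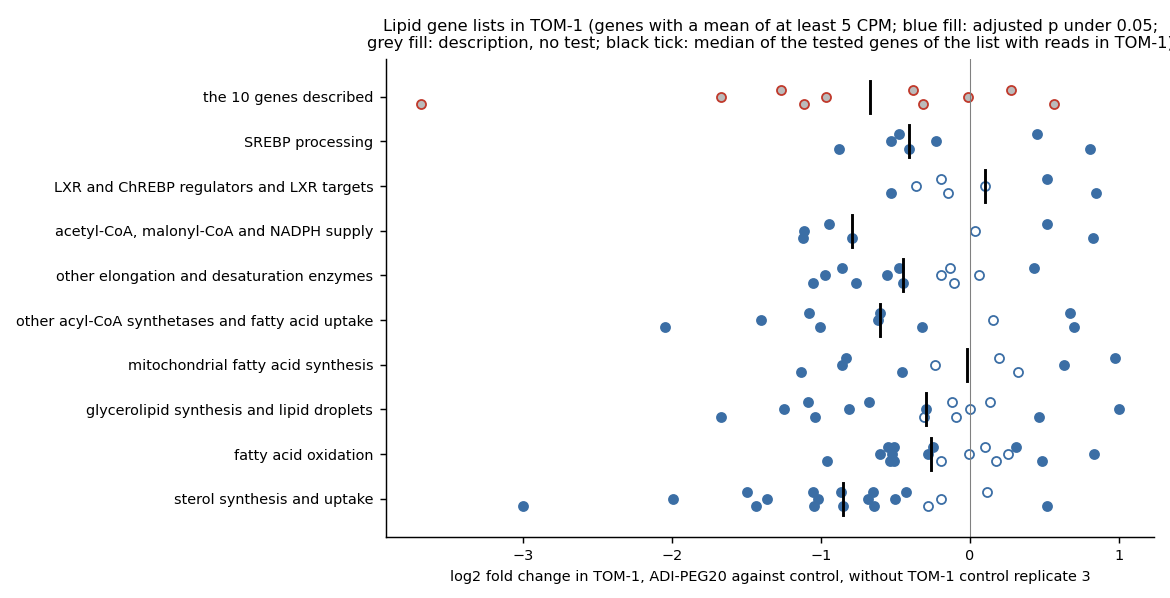
Log2 fold change of ADI-PEG20 against control in TOM-1, fitted without TOM-1 control replicate 3, for the genes of 10 lists with a mean of at least 5 CPM and reads in TOM-1, filled in blue where the adjusted p is under 0.05 and in grey for the 10 genes described, which have no test there, with a black tick at the median of the list's tested genes with reads. The tick of the 10 genes described is at -0.67 and that of sterol synthesis and uptake at -0.85, both left of 0.

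The genes whose 4 group means were most like those of SCD were ranked by the root-mean-square difference of log2 levels, each gene centred on its own mean over the groups, over 10553 genes with a mean of at least 5 CPM and without TOM-1 control replicate 3. S100A4, a calcium-binding protein, was closest at 0.23, and the 5 closest also held CSF1R, a growth factor receptor of the myeloid lineage, at 0.48, HSPA1B at 0.63 and DRAXIN at 0.65. S100A4 averaged 67.9 CPM in TOM-1 control, 7.27 in treated TOM-1, 171 in RS4;11 control and 147 in treated RS4;11. CSF1R followed at 4.13, 0.45, 16.7 and 14.3 CPM. HSPA1B, a heat shock protein, has a near-identical copy in HSPA1A, so its counts are uncertain. None of the other 9 enzymes was among the 5 closest.

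The labelled cell type was checked against markers. All 8 B-lineage markers had reads in every group, summing to 5356 to 6654 CPM in TOM-1 control and to 5497 to 5752 CPM in treated TOM-1, while RS4;11 summed to 1947 to 2265 CPM. The 4 T-cell markers summed to at most 0.32 CPM and the 4 erythroid markers to at most 0.26 CPM in any library. The 5 myeloid markers summed to 15.1 to 26.7 CPM in TOM-1 control, 10.2 to 15.6 CPM in treated TOM-1, 15.7 to 20.8 CPM in RS4;11 control and 13.5 to 17.02 CPM in treated RS4;11, with ELANE at 0 in every group. The 4 stromal and endothelial markers summed to 185 to 254 CPM in TOM-1 and to 3.79 to 8.27 CPM in RS4;11, with COL1A2 at 0 in every group. These 2 sums and that of the B-lineage markers hide markers that went opposite ways between the lines. In control culture with all libraries, the log2 differences of the 8 B-lineage markers ran from -0.86 to 5.50. Those of the 3 tested stromal and endothelial markers ran from -5.26 to 8.64. Those of the 3 tested myeloid markers ran from -7.39 to 5.18. The part of these markers in the difference between the lines was not tested.

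In the GENCODE 29 annotation of GRCh38, ACLY lies at chr17:41866908-41930542 and FASN at chr17:82078333-82098332, both on the minus strand, and ACACA at chr17:37084988-37406818, also on the minus strand. SCD spans chr10:100347124-100364834 on the plus strand. FADS1 at chr11:61799625-61829318 on the minus strand and FADS2 at chr11:61792980-61867354 on the plus strand overlap. ELOVL5 lies at chr6:53267398-53349179 and ELOVL6 at chr4:110045846-110199199, both on the minus strand, and ACSL3 at chr2:222860934-222944639 and ACSS2 at chr20:34872146-34927962, both on the plus strand. ACLY and ACSL3 overlap antisense genes over 2.99% and 1.41% of their exonic lengths, so reads of those stretches cannot be assigned with certainty.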

How the data were processed

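The deposited values are unscaled counts: the authors gave 1 whole-number table with a row for each Ensembl gene and a column for each library. STAR, SAMtools and featureCounts with hg38 are named, without versions, in the submitters' processing notes. The annotation release and strand setting are not given in the sources used here, so reads of overlapping genes may be misassigned. Counts were fitted with edgeR 4.0.16 (R 4.3.3) by glmQLFit and glmQLFTest with TMM scaling and filterByExpr (minimum count 10), as 4 group means over 12 libraries, with Benjamini-Hochberg adjustment over all tested genes and a threshold of 0.05. The fit was repeated without TOM-1 control replicate 3. SE is the absolute log2 fold change over the square root of F. Alternatives were DESeq2 1.42.0, other scalings and filters, the replicate block, fits on only the libraries compared, and omission of single libraries. The script was tested on simulated data. Gene symbols came from a table of names, and lengths and positions from GENCODE 29.

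The 10 genes and the lists were chosen with earlier results of these data known. The genes named from each list were the 3 with the largest absolute log2 fold change in TOM-1 without TOM-1 control replicate 3 among those with a mean of at least 5 CPM, with SREBF1, SREBF2 and INSIG1 in any case. The 5 genes most like SCD were found among genes with the same minimum level. A gene that these rules name is not reported here. List medians leave out genes with no read in the groups compared. Total counts were 18958144 to 35956959 per library, and the SE also depends on the spread between the libraries fitted.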

Additional observations from a re-analysis of the deposited data

Results flagged for a closer look

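For 3 of the 10 genes the difference between the effects of ADI-PEG20 in the lines lay past the threshold of edgeR over all 12 libraries, which is what brought them here. The log2 difference, TOM-1 minus RS4;11, was -3.32 for SCD, -1.32 for FASN and -1.30 for FADS2. The genes had been selected with the TOM-1 result for SCD in view, and this difference contains that result, so the values are a description and the threshold supports nothing.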

How the results depend on the processing

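Of the log2 fold changes of the 10 genes recomputed under the alternatives, 1548 kept their direction and side of the threshold, 34 passed only in the alternative, 39 no longer passed and 19 changed sign, all in fits that left out 1 library. FADS1 between the lines in control culture ran from -0.21 to 0.16 over these fits, and its changed sign was the 1 that passed the threshold. The others lay near 0. In TOM-1, ELOVL5 ran from -0.013 to 0.28 and ACSS2 from -0.31 to 0.053, and in the difference from -0.080 to 0.21 and from -0.28 to 0.089. In RS4;11, FADS1 ran from -0.0038 to 0.059, ACSL3 from -0.049 to 0.085 and ACSS2 from -0.11 to 0.018. When 1 more library was left out beside TOM-1 control replicate 3, ELOVL5 in TOM-1 ran from -0.059 to 0.033, and in RS4;11 FADS1 ran from -0.0070 to 0.070, ACSL3 from -0.052 to 0.084 and ACSS2 from -0.12 to 0.031. With the libraries of the contrast alone, 2639 genes and 3 of the 10 were called in TOM-1 (5527 and 6 with all 12 libraries), 3 genes in RS4;11 and 3548 between the lines in control culture (6014 with all 12). The test of the difference called 3228 genes with DESeq2 (2072 with edgeR). Leaving out 1 library gave 0 to 58 genes and 0 to 1 of the 10 in RS4;11, 1169 to 5567 genes and 3 to 7 of the 10 for the difference (1169 to 1375 without any 1 treated TOM-1 or any 1 RS4;11 library), and 4731 to 9681 genes between the lines in control culture, with the upper ends from the fit without TOM-1 control replicate 3. Without that library, RS4;11 had 58 genes called, 31 with DESeq2 size factors (0 of the 10), 209 with the replicate block, and 1 to 73 (0 to 1 of the 10) when 1 more library was left out. These alternatives without TOM-1 control replicate 3 were chosen after seeing the data. Whether the replicate numbers pair the libraries is not settled, and the main fit has no term for them. Deviations of same-numbered libraries correlated at -0.06 to 0.14 over 18 pairs, 1 of them above 0.1. Of 12 libraries, 7 correlated best with their own number. Between RS4;11 control and treated RS4;11, same-numbered libraries correlated at 0.057, 0.031 and 0.145 for replicates 1, 2 and 3. Different-numbered ones there ran from -0.095 to 0.055. The replicate block left 5324 genes and 7 of the 10 called in TOM-1. With 3 libraries a group and 1 of them apart, small differences were not detectable with all libraries.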

Other observations

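Some lipid genes had no read in any of the 6 TOM-1 libraries while RS4;11 expressed them, and they are named here after their values were seen. MLYCD, which breaks down malonyl-CoA, measured 22.7 to 28.7 CPM in the RS4;11 libraries. Against a floor of 3 counts in a library, which is at most 0.166 CPM in TOM-1, its lowest RS4;11 library was at least 137-fold higher. CYP51A1, a demethylase of sterol synthesis, measured 3.89 to 8.97 CPM in RS4;11, at least 23.5-fold higher. Such genes cannot move in the TOM-1 treatment comparison, and they were left out of the list medians there. The floor covers counting error only, and whether the zeros come from the cells of this line or from the making of the deposited table was not tested, so the folds describe the table.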
